A study of Homo sapiens with 12 samples.

Results

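22Rv1-DR and DU145-DR are human prostate cancer cell lines selected for resistance to docetaxel, a taxane that stabilises microtubules and blocks mitosis. Their mRNA was set against each other across all genes on 6 of the 12 arrays of the series, 3 of 22Rv1-DR and 3 of DU145-DR, chosen by their labels. The resistant cells were grown in RPMI with fetal bovine serum under docetaxel. The parental 22Rv1 and DU145 cells, from which they were selected, were grown without the drug. Their 6 arrays are used here to show how far the parental lines had the same gap. Neither the labels nor the protocols state the drug dose, the length of the selection, or whether a resistant line is 1 clone or a mixed population. They do not state either that replicates came from separate cultures, so a p-value here reflects the spread of these samples, which may be technical.

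22Rv1 and DU145 are long-established models of different prostate cancer states. 22Rv1 comes from a xenograft of a tumour that relapsed after castration and keeps androgen signalling, the pathway through which the hormone receptor drives luminal secretory genes such as the kallikreins. DU145 comes from a brain metastasis, does not depend on androgen and makes little of the secretory products. Epithelial cells hold together through cadherins, claudins and desmosomes, and can shift towards a mesenchymal state under factors such as ZEB1 and SNAI2, with loss of the cadherin E-cadherin and gain of the filament protein vimentin. Taxane resistance in cultured cells is best known to come with efflux of the drug by P-glycoprotein, the product of ABCB1, and with changes in tubulin.

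Values are normalized log2 intensity, on which a difference of 1 is 2-fold. Replicates 1 and 2 of each group are on the smaller array type and were tested. Replicate 3 of each group is on a larger array type with a different scale, so its difference between the lines is given beside the test, untested. Differences are 22Rv1-DR minus DU145-DR, with the standard error of the fit and n = 2 per group, so a positive value is higher in 22Rv1-DR. Levels are compared between lines for the same probe set and never between genes. The correlation across genes between replicates 1 and 2 was 0.985 in 22Rv1-DR and 0.959 in DU145-DR. Genes that stood 1 or more apart between these replicates numbered 776 in DU145-DR (8.71%) and 157 in 22Rv1-DR (1.76%), so the DU145-DR pair was the less even one.

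The 2 resistant lines differed across a large part of the measured genes. Of 8910 genes tested, 4435 (49.8%) passed limma's test at an adjusted p under 0.05, 2312 (25.9%) higher in 22Rv1-DR and 2123 (23.8%) higher in DU145-DR. Counts in the gene lists below are to be read against these shares. With arrays only shifted to 1 median, where all genes tested had a median difference of 0.23 in place of 0.03, the split was 2524 to 1483, and with values as deposited, where that median was -1.34, it was 438 to 6701. Values as deposited therefore read lower in 22Rv1-DR for most genes. A list that turned with them has its median as deposited given beside it, to be read against -1.34. The floor of the deposited arrays of replicates 1 and 2 split by line. Line and array processing therefore cannot be told apart in the tested differences between lines. A difference of 1 or more as well was found for 2785 genes (31.3%), 1466 (16.5%) higher in 22Rv1-DR and 1319 (14.8%) higher in DU145-DR. Of those 2785 genes, 2655 (95.3%) had the same direction in replicate 3, against 78.2% of all genes tested. The arrays of replicates 1 and 2 did not overlap between the lines for 6661 genes (74.8%), so a lack of overlap is common here. Replicate 3 has its own scale, so a lack of overlap stated below is to be read within each array type. A difference of 6 or more was reached by 16 genes in favour of 22Rv1-DR and 19 in favour of DU145-DR. For 453 of the 2785 genes the lower line was under the 25th percentile of the table (log2 5.20), where a level cannot be told from the array's floor and the size of the difference depends on it.

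Much of this gap was also present between the parental lines. Of 8910 genes, 4357 (48.9%) differed between parental 22Rv1 and DU145 by the same test (2313 higher in 22Rv1 and 2044 in DU145, or 2763 and 1461 with arrays shifted to 1 median and 361 and 6804 as deposited; 2858 in all without 22Rv1 replicate 1), and 2917 genes passed in both comparisons with the same direction, 1524 higher in the 22Rv1 lines and 1393 higher in the DU145 lines. Another 1383 genes passed between the resistant lines alone and 1305 between the parental lines alone, and 135 passed in both with opposite directions. The median size of the difference was 0.66 in both comparisons. Passing in 1 comparison and not in the other is no test of change, and that test, the difference of the differences, is given after the gene groups.

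The 12 genes with the largest differences in favour of 22Rv1-DR, among those whose arrays did not overlap, were all under the 25th percentile in DU145-DR. SPINK1, a trypsin inhibitor secreted by some prostate cancers, read 14.36, 14.26 and 14.45 in 22Rv1-DR replicates 1 to 3 and 5.05, 5.17 and 4.91 in DU145-DR. Its difference of 9.20 ± 0.15 (adjusted p = 1.26e-06) was the largest among all genes tested, and 9.54 in replicate 3. LUM, the matrix proteoglycan lumican, read 11.96, 12.43 and 10.71 against 4.06, 3.99 and 2.96. Within each array type 22Rv1-DR was above DU145-DR for both, which the rule that chose these genes required. LUM differed by 8.17 ± 0.24 (adjusted p = 3.48e-06). TMT1A, a thiol methyltransferase, differed by 7.71 ± 0.19 and GSTA1, a glutathione transferase, by 6.92 ± 0.15. TOX3, a chromatin protein, differed by 7.35 ± 0.17 on a probe set named as open to cross-hybridization. ID4, an inhibitor of helix-loop-helix factors, differed by 6.46 ± 0.25 and SELENOP, a selenium carrier in plasma, by 6.64 ± 0.24. SCUBE2, a secreted protein that helps release Hedgehog ligands, differed by 6.32 ± 0.19.

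Cancer-testis antigens, proteins normally limited to germ cells, supplied several of the leading genes. Of 14 tested, 7 were higher in 22Rv1-DR and 4 in DU145-DR, with a median of 1.03 against 0.03 over all genes tested (-0.39 as deposited). MAGEA6 read 12.34, 11.60 and 12.44 in 22Rv1-DR and 4.68, 4.69 and 3.96 in DU145-DR, a difference of 7.29 ± 0.26. MAGEA12 (7.13 ± 0.15), MAGEA4 (6.47 ± 0.21), MAGEA1 (6.27 ± 0.18) and MAGEC2 (5.96 ± 0.25) followed. MAGEA genes are related copies on the X chromosome. The probe sets of MAGEA6, MAGEA12 and MAGEA1 are named as open to cross-hybridization, so these copies cannot be told apart from their relatives. In the other direction, TKTL1, a transketolase-like gene, read 10.28, 11.47 and 9.86 in DU145-DR and 5.27, 4.86 and 4.09 in 22Rv1-DR (-5.81 ± 0.39).

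The largest difference in favour of DU145-DR was that of CD44. CD44, the hyaluronan receptor, read 13.30, 12.68 and 13.41 in DU145-DR and 4.91, 4.93 and 3.89 in 22Rv1-DR, a difference of -8.07 ± 0.21 (adjusted p = 2.9e-06) and of -9.52 in replicate 3. VIM, vimentin, read 14.48, 14.19 and 14.52 against 6.69, 6.82 and 6.41 (-7.58 ± 0.21, adjusted p = 3.42e-06). Within each array type DU145-DR was above 22Rv1-DR for both, which the rule that chose these genes required. AXL, a receptor tyrosine kinase, differed by -7.77 ± 0.20, and UCHL1, a ubiquitin hydrolase of neurons, by -7.66 ± 0.24. ANXA2, a membrane-binding annexin measured on a probe set open to cross-hybridization, differed by -7.90 ± 0.17, and TMSB4X, which binds free actin, by -7.14 ± 0.22. DKK1, a secreted Wnt antagonist, differed by -6.79 ± 0.21, COL4A1, a chain of basement membrane collagen, by -6.75 ± 0.40, and NT5E, a surface nucleotidase, by -6.40 ± 0.32. NRP1, a co-receptor for semaphorins and VEGF, differed by -6.33 ± 0.22. TM4SF1, a tetraspanin-like surface protein, differed by -6.59 ± 0.30, and U2AF1, a splicing factor, by -6.41 ± 0.49, but by -0.42 in replicate 3.

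**Figure D1:**
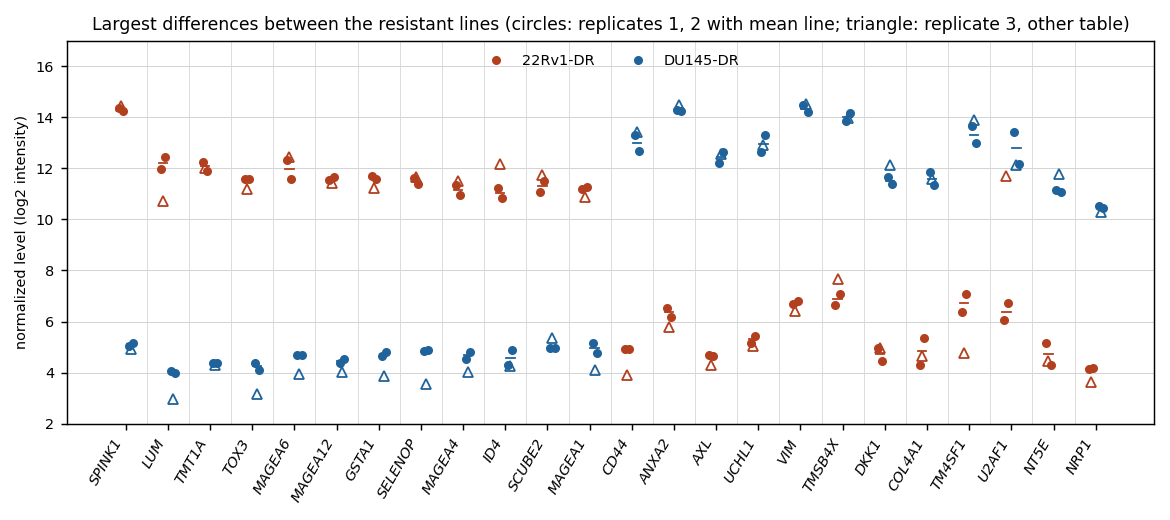
Normalized log2 intensity (vertical axis) of the 12 genes with the largest difference in each direction, for 22Rv1-DR (red) and DU145-DR (blue); circles are replicates 1 and 2 with their mean as a line, and the triangle is replicate 3 from the other table. SPINK1 stands at 14.26 to 14.45 in 22Rv1-DR and 4.91 to 5.17 in DU145-DR, and U2AF1 is the gene whose replicate 3 arrays lie close together (11.72 and 12.15).

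Luminal epithelial genes were higher in 22Rv1-DR. Of 22 luminal epithelial genes tested, 16 were higher in 22Rv1-DR and 1, SPINT1, in DU145-DR (-1.68 ± 0.25, but 4.26 in replicate 3), with a median of 2.58 (3.30 in replicate 3) against 0.03 over all genes tested. CDH1, the gene of E-cadherin, read 8.63, 8.86 and 8.72 in 22Rv1-DR and 4.42, 4.55 and 2.89 in DU145-DR, a difference of 4.26 ± 0.17 (adjusted p = 7.71e-06). Of the 2 probe sets of CDH1, the other differed by -0.10. EPCAM, an epithelial adhesion molecule, read 11.80, 11.81 and 11.95 against 8.02, 8.33 and 7.82 (3.63 ± 0.16). The arrays of the lines did not overlap for either gene. CLDN7, a claudin of tight junctions, differed by 4.91 ± 0.41, SPINT2, an inhibitor of surface proteases, by 4.46 ± 0.15, and ESRP1, a splicing factor of epithelial cells, by 4.32 ± 0.16. Keratins of simple epithelium were close between the lines. KRT8 read 10.91, 11.02 and 11.05 in 22Rv1-DR and 11.33, 10.60 and 12.36 in DU145-DR, and KRT19 differed by 0.03 ± 0.39 (adjusted p = 0.959). The 95% interval of the KRT8 difference was -0.59 to 0.59. KRT18 was higher in 22Rv1-DR by 0.78 ± 0.18 (adjusted p = 0.0111; 0.0664 without 22Rv1-DR replicate 1; -0.24, adjusted p = 0.341, as deposited). KRT8 and KRT18 were measured on probe sets open to cross-hybridization.

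Cell junction genes outside the luminal list went the same way, 13 of 21 higher in 22Rv1-DR and 3 in DU145-DR (median 1.19; -0.40 as deposited). With a stricter filter on dim genes, at the 60th percentile, 10 were tested and 7 were higher in 22Rv1-DR, and with a filter on the mean of all arrays 7 of 14. The 3 higher in DU145-DR became 1 without 22Rv1-DR replicate 1 or with only the 4 resistant arrays fitted. GJA1, a connexin of gap junctions, read 10.33, 10.60 and 11.59 in 22Rv1-DR and 4.61, 4.30 and 4.22 in DU145-DR, a difference of 6.01 ± 0.19 (adjusted p = 4.17e-06). CDH12, a cadherin described mainly in the nervous system, differed by 4.93 ± 0.37, and JUP, the plakoglobin of desmosomes, by 3.13 ± 0.21. Every array of 22Rv1-DR was above every array of DU145-DR for GJA1. DSC2, a desmosomal cadherin, was lower in 22Rv1-DR (-2.27 ± 0.49, and 0.12 in replicate 3). Of 13 basal epithelial genes, 7 were higher in DU145-DR, among them ITGA6, the integrin alpha chain of hemidesmosomes (-5.56 ± 0.21), S100A2 (-4.48 ± 0.36) and the laminin chain LAMB3 (-3.23 ± 0.34). CDH3, P-cadherin, was the 1 higher in 22Rv1-DR (2.54 ± 0.21), and 2 genes were without DU145-DR replicate 1 and 2 without DU145-DR replicate 2.

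Mesenchymal genes were mostly higher in DU145-DR, 25 of 33, with 4 higher in 22Rv1-DR and a median of -3.54 (-3.87 in replicate 3). Beside CD44, VIM, AXL and NT5E, the transcription factor SNAI2 read 11.07, 10.92 and 10.26 in DU145-DR and 4.24, 5.18 and 3.67 in 22Rv1-DR (-6.29 ± 0.34). ZEB1, a repressor of E-cadherin, read 10.16, 9.25 and 8.65 against 5.05, 6.27 and 5.29, a difference of -4.04 ± 0.62 (adjusted p = 0.002). CAV1, caveolin, differed by -5.25 ± 0.36. The arrays of the 2 lines did not overlap for these genes. The 4 exceptions were TWIST1, another transcription factor of the mesenchymal programme (4.98 ± 0.49), CALD1, which binds actin (3.84 ± 0.88), smooth muscle actin ACTA2, and fibronectin FN1, which missed the threshold without 22Rv1-DR replicate 1 (adjusted p = 0.0699). CDH2, N-cadherin, was dim in both lines (5.80, 5.82 and 5.19 in 22Rv1-DR; 5.69, 6.07 and 5.10 in DU145-DR).

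Matrix and surface genes leaned towards DU145-DR as well. Of 40 collagen and matrix genes, 25 were higher in DU145-DR and 6 in 22Rv1-DR (median -1.07). With arrays shifted to 1 median, 20 were higher in DU145-DR and the median was -0.91. Fewer than 25 passed there without either array of 22Rv1-DR as well. The basement membrane genes COL4A1, COL4A2 (-4.78 ± 0.34) and the nidogen NID2 (-5.44 ± 0.31) were among the 25, while LUM was among the 6. Of 11 integrins, 5 were higher in DU145-DR (3 without 22Rv1-DR replicate 1), among them the collagen-binding chain ITGA2 (-2.09 ± 0.34) and its partner ITGB1 (-1.58 ± 0.14; 1 of 5 probe sets had the opposite sign). ITGA6 was counted with the basal genes. Of 19 S100, annexin and caveola genes, 14 were higher in DU145-DR and 1, S100P, in 22Rv1-DR, and 9 were higher in DU145-DR without 22Rv1-DR replicate 2. ANXA1 read 13.68, 13.43 and 13.20 in DU145-DR and 7.32, 7.29 and 7.10 in 22Rv1-DR (-6.24 ± 0.17). Of 43 proteases and inhibitors, 21 were higher in DU145-DR and 8 in 22Rv1-DR, led by SPINK1. The 21 moved both ways when 1 array was left out. Among the 21 was the plasminogen activator PLAU (10.74, 11.24 and 11.36 against 6.06, 6.29 and 5.26; -4.81 ± 0.23). TFPI2, an inhibitor of serine proteases, was another (-5.16 ± 0.53).

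**Figure D2:**
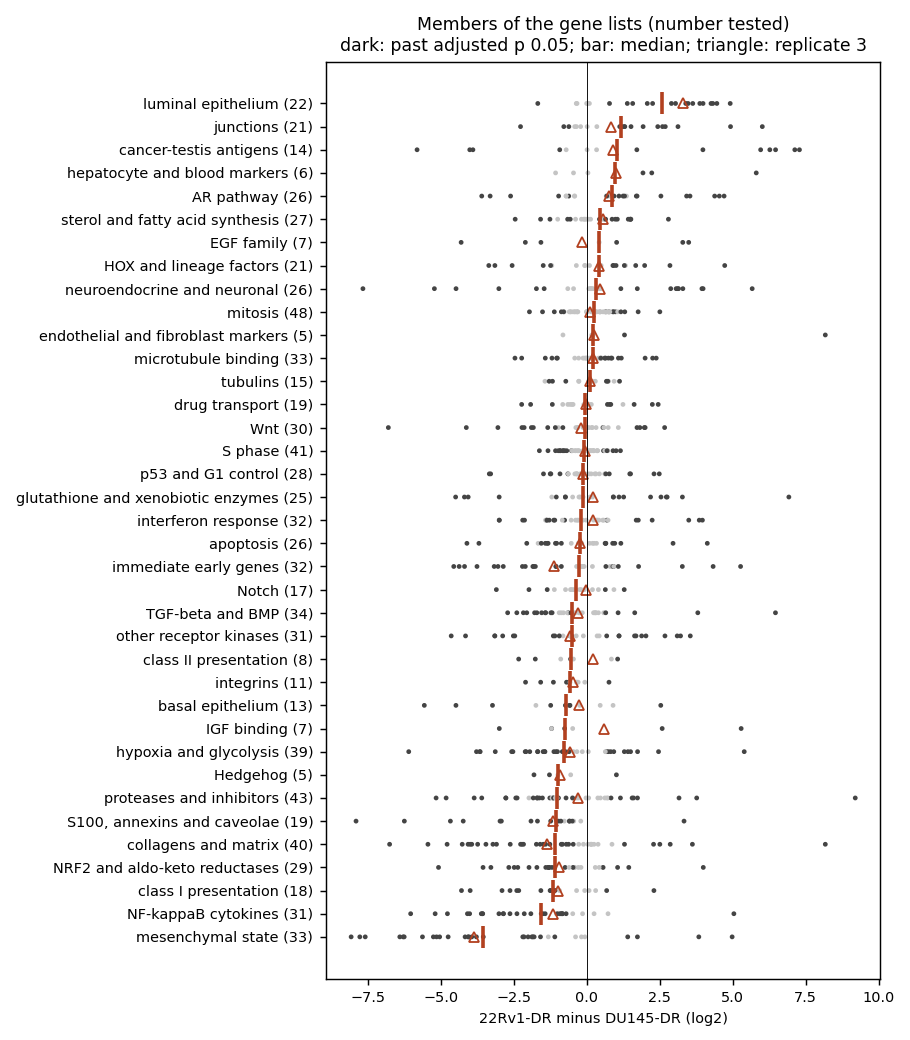
Difference between the resistant lines (log2, horizontal axis) of each tested member of the gene lists, 1 list per line with the number tested; dark points passed an adjusted p of 0.05, the red bar is the list's median and the triangle its median in replicate 3. Luminal epithelium has the highest median (2.58) and the mesenchymal state the lowest (-3.54).

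Prostate secretory genes separated the lines. Of 26 genes of the androgen response tested, 13 were higher in 22Rv1-DR and 5 in DU145-DR (median 0.87; 0.77 in replicate 3; -0.66 as deposited). The 5 became 3 without DU145-DR replicate 1 or either of 22Rv1-DR replicates 1 and 2. KLK2, a secreted kallikrein protease, read 10.83, 10.71 and 9.57 in 22Rv1-DR and 6.44, 5.69 and 4.23 in DU145-DR, a difference of 4.71 ± 0.32 (adjusted p = 6.02e-05). KLK3, prostate-specific antigen, read 8.40, 7.97 and 6.82 against 5.96, 5.33 and 4.41 (2.54 ± 0.37, adjusted p = 0.00157). The arrays of 22Rv1-DR were above those of DU145-DR for both kallikreins. As deposited, KLK3 differed by 0.99 (adjusted p = 0.0692). The pioneer factor FOXA1 differed by 4.54 ± 0.14, the homeobox factor HOXB13 by 3.54 ± 0.29, and TMPRSS2, a surface protease, by 1.72 ± 0.29 (0.12, adjusted p = 0.728, as deposited). Of the 5 members higher in DU145-DR, NDRG1, a stress response gene also raised by hypoxia, differed by -3.59 ± 0.33, and PMEPA1, an inhibitor of TGF-beta signalling, by -3.31 ± 0.62. All 7 luminal markers on the array were above the filter on dim genes in 22Rv1-DR and 3 in DU145-DR.

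The promoters of the kallikreins are shown because both genes are higher in 22Rv1-DR and only 1 of them holds the searched letters. They are the 250 bases before the annotated start, from RefSeq on GRCh38.p14, 5′ to 3′ on the gene's strand, which is the plus strand for KLK3 (chr19:50854665-50854914) and KLK2 (chr19:50873189-50873438). Capitals mark AGAACA, a form of the core of the hormone receptor's binding site, searched with its reverse complement TGTTCT.
KLK3: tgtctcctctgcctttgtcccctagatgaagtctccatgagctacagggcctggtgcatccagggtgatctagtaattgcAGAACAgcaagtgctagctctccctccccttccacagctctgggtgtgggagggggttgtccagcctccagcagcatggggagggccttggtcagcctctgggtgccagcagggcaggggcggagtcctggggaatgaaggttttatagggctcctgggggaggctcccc
KLK2: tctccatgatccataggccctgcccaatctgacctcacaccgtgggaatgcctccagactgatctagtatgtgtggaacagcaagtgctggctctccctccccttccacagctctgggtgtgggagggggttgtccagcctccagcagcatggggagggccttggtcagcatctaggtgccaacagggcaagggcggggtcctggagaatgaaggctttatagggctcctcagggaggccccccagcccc
The match in KLK3 begins at -170 from the start, and KLK2 has no exact match in this window. In the stretch the 2 promoters share, KLK3 reads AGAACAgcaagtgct and KLK2 reads ggaacagcaagtgct. The search takes exact letters only, so it does not show that KLK2 lacks a site. The counts that follow were taken over longer windows, which also run a short way past the annotated start. Of the 26 tested members of the list, 19 had such a window, and 3 (15.8%) held the letters. Of all 27305 promoters 14.9% held them, as did 649 of the 7294 promoters of tested genes (8.9%).

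Endothelial and leukocyte markers were mostly dim in both lines. No endothelial marker was above the filter in either line (0 of 4), and leukocyte markers numbered 0 of 4 in 22Rv1-DR and 1 of 4 in DU145-DR. ALB, albumin, read 10.29, 10.39 and 12.25 in 22Rv1-DR and 4.51, 4.56 and 3.82 in DU145-DR, a difference of 5.81 ± 0.17, though 2 of its 3 probe sets had the opposite sign (the lowest at -0.34). TTR, the thyroid hormone carrier transthyretin, differed by 2.23 ± 0.18 and APOA1 by 1.93 ± 0.26. As these are RNA pools, fewer cells of a type and less RNA per cell cannot be told apart. Neuronal and neuroendocrine genes went both ways, 10 of 26 higher in 22Rv1-DR and 6 in DU145-DR (median 0.31; -1.30 as deposited). SCG3, a granin of secretory granules, read 10.11, 9.40 and 9.52 in 22Rv1-DR and 3.98, 4.20 and 3.45 in DU145-DR (5.67 ± 0.37). SCG5, another granule protein (-5.22 ± 0.47), and the neurofilament NEFL (-4.47 ± 0.16) were higher in DU145-DR. CHGA, the classic neuroendocrine marker chromogranin A, was dim in both lines (5.36, 4.76 and 3.72; 4.94, 4.84 and 3.95).

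The drug efflux gene ABCB1 was high in both resistant lines. It read 12.42, 12.20 and 12.27 in 22Rv1-DR and 12.31, 9.82 and 13.80 in DU145-DR, against 4.77, 4.53 and 3.91 in parental 22Rv1 and 5.25, 5.31 and 4.13 in parental DU145. The 3 arrays of 22Rv1-DR lay close together, and those of DU145-DR lay on both sides of them. The difference between the resistant lines was 1.24 ± 0.69 (adjusted p = 0.175; 95% interval -0.40 to 2.89), and -1.52 in replicate 3. Without DU145-DR replicate 1 it was 2.49 (adjusted p = 0.000442), and without DU145-DR replicate 2 it was -0.00 (adjusted p = 0.985), so 1 DU145-DR array decided the call. With arrays shifted to 1 median it was 1.76 (adjusted p = 0.0103). ABCB4, the neighbouring phospholipid pump gene on chromosome 7, read 5.61, 6.57 and 5.38 in 22Rv1-DR and 8.42, 5.05 and 10.12 in DU145-DR (-0.65 ± 0.97, adjusted p = 0.605; -4.74 in replicate 3). Without DU145-DR replicate 1 that difference was 1.04 (adjusted p = 0.121), and without DU145-DR replicate 2 it was -2.33 (adjusted p = 0.00975). Of DU145-DR replicates 1 and 2, the array lower in ABCB1 was also the lower in ABCB4.

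Other transporters went both ways, 31.6% of drug transport genes higher in 22Rv1-DR and 15.8% in DU145-DR, against 25.9% and 23.8% of all genes tested. Of 19 drug transport genes, 6 were higher in 22Rv1-DR and 3 in DU145-DR (median -0.06; -1.42 as deposited and 0.15 with arrays shifted to 1 median), and 3 were higher in 22Rv1-DR without 22Rv1-DR replicate 2. ABCG2, an efflux pump of another family, read 7.78, 8.18 and 7.44 in 22Rv1-DR and 5.64, 5.43 and 5.22 in DU145-DR, a difference of 2.45 ± 0.23 (adjusted p = 0.000236) with no overlap. ABCC3, a pump for conjugates, was higher in DU145-DR (7.60, 7.74 and 6.65 against 8.96, 10.84 and 8.28; -2.23 ± 0.59, adjusted p = 0.0188), and missed the threshold without 22Rv1-DR replicate 1 (0.0822) or 2 (0.0653). ABCC1 differed by -0.56 ± 0.23 (adjusted p = 0.0822; -0.49, adjusted p = 0.0152, for the mean of its probe sets). ABCA1, the cholesterol exporter, was higher in DU145-DR (-1.92 ± 0.30).

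**Figure D3:**
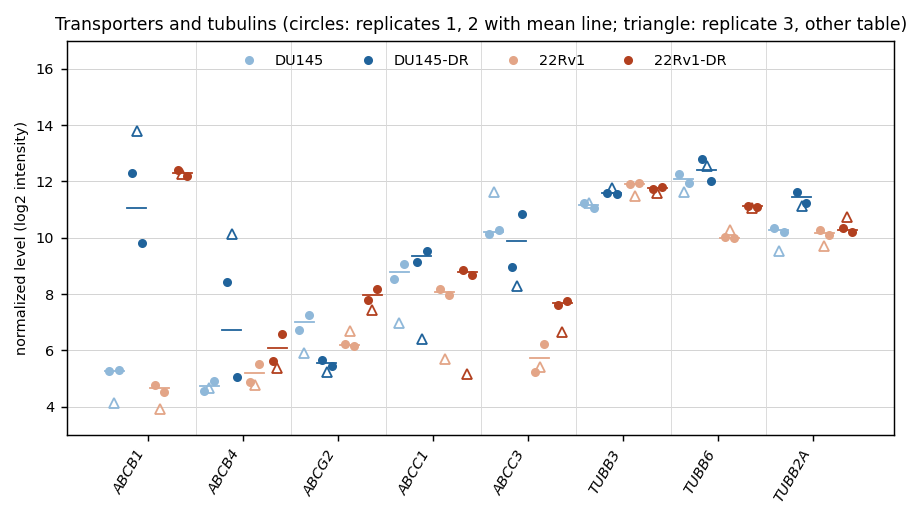
Normalized log2 intensity (vertical axis) of transporters and beta-tubulins in the parental (pale) and resistant (dark) lines; circles are replicates 1 and 2 with their mean as a line, and triangles are replicate 3. ABCB1 is at 12.20 to 12.42 in 22Rv1-DR and 9.82 to 13.80 in DU145-DR, and at 5.31 or less in the parental lines.

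Tubulins, which form the target of the drug, went both ways. In each line 20% of them were higher, against 25.9% of all genes tested for 22Rv1-DR and 23.8% for DU145-DR. Of 15 tested, 3 were higher in 22Rv1-DR and 3 in DU145-DR (median 0.10; -0.75 as deposited), and shifting arrays to 1 median gave 6 higher in 22Rv1-DR and a median of 0.82. Without 22Rv1-DR replicate 1 or 2, 1 was higher in 22Rv1-DR. TUBB6, a broadly expressed beta-tubulin, read 11.13, 11.10 and 11.07 in 22Rv1-DR and 12.79, 12.01 and 12.55 in DU145-DR (-1.29 ± 0.26, adjusted p = 0.00683). TUBB2A differed by -1.17 ± 0.18 (adjusted p = 0.00208; -0.40 in replicate 3). Both were lower on every array of 22Rv1-DR. TUBB3, the isotype most often tied to taxane resistance, read 11.74, 11.79 and 11.59 against 11.58, 11.57 and 11.78 on a probe set open to cross-hybridization. Its difference was 0.19 ± 0.14 (adjusted p = 0.285), with a 95% interval of -0.14 to 0.52. Of 33 microtubule-binding genes, 11 were higher in 22Rv1-DR and 6 in DU145-DR (median 0.21; -1.13 as deposited and 0.44 with arrays shifted to 1 median), and 6 were higher in 22Rv1-DR without 22Rv1-DR replicate 2. MAP2 (2.38 ± 0.26) and MAP9 (2.26 ± 0.25), which bind the microtubule lattice, were higher in 22Rv1-DR, and MID1, a microtubule-bound ubiquitin ligase, in DU145-DR (-2.46 ± 0.15; 1 of 3 probe sets had the opposite sign).

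Genes that present antigen on class I molecules were higher in DU145-DR, 11 of 18, with 2 higher in 22Rv1-DR (1 without 22Rv1-DR replicate 1; median -1.17). HLA-C read 12.47, 12.12 and 11.72 in DU145-DR and 8.14, 7.88 and 6.15 in 22Rv1-DR, a difference of -4.29 ± 0.18 (adjusted p = 9.79e-06). HLA-B differed by -3.99 ± 0.18 and HLA-G by -2.63 ± 0.35, all 3 on probe sets open to cross-hybridization. No array overlapped for HLA-C. PSMB8, an immunoproteasome subunit, differed by -2.90 ± 0.21. B2M, the shared light chain, differed by -1.23 ± 0.15 (adjusted p = 0.000708), and by -0.40 (adjusted p = 0.25) with arrays shifted to 1 median. PSME1, a proteasome activator subunit, was higher in 22Rv1-DR (2.30 ± 0.23). Of 8 class II genes, 3 were higher in DU145-DR and 1 in 22Rv1-DR (median -0.54, but 0.23 in replicate 3). The 3 became 1 without 22Rv1-DR replicate 1 or 2 or with only the 4 resistant arrays fitted, and the 1 became 2 without DU145-DR replicate 2.

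Among interferon-induced genes, the largest differences in favour of 22Rv1-DR were those of the 3 IFITM genes, membrane proteins that restrict virus entry. IFITM1 differed by 3.96 ± 0.35. IFITM3 read 11.32, 11.36 and 11.32 in 22Rv1-DR and 7.88, 7.09 and 6.28 in DU145-DR, a difference of 3.85 ± 0.27 (adjusted p = 6.4e-05). IFITM2 differed by 3.50 ± 0.22, and IFITM2 and IFITM3 were read on probe sets open to cross-hybridization. ISG15, a ubiquitin-like protein, was also higher in 22Rv1-DR (2.24 ± 0.18). In DU145-DR the higher ones were UBE2L6, the conjugating enzyme for ISG15 (8.51, 8.94 and 7.95 against 5.66, 5.79 and 5.62), and IFI16, a DNA sensor (-2.99 ± 0.25). Over the list of 32, 7 (21.9%) were higher in 22Rv1-DR and 10 (31.2%) in DU145-DR, against 25.9% and 23.8% of all genes tested. The median was -0.21, or 0.02 with arrays shifted to 1 median and 0.21 in replicate 3. With the filter at the 60th percentile 5 of 18 were higher in DU145-DR, and with a filter on the mean of all arrays 6 of 24.

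Cytokines and chemokines of the NF-kappaB pathway were higher in DU145-DR. NF-kappaB factors are held in the cytoplasm by inhibitors such as NFKBIA and, once freed, switch on chemokines that draw neutrophils. Of 31 genes, 24 were higher in DU145-DR and 1 in 22Rv1-DR (median -1.56; -1.14 in replicate 3). With only the 4 resistant arrays fitted, 21 were higher in DU145-DR. Fewer than 24 passed there when any 1 array was left out, with medians of -1.91 to -1.56. CXCL8, a chemokine for neutrophils, read 11.16, 10.01 and 6.08 in DU145-DR and 4.48, 4.63 and 4.80 in 22Rv1-DR. The difference was -6.03 ± 0.42 (adjusted p = 6.27e-05) on replicates 1 and 2 and -1.29 in replicate 3, and the other of its 2 probe sets differed by 0.62. CXCL2 read 9.81, 10.55 and 9.49 against 5.21, 4.77 and 3.79 (-5.19 ± 0.29; probe set open to cross-hybridization). The 2 lines did not overlap for either chemokine. CCL20, a lymphocyte attractant, differed by -4.77 ± 0.39 and by -0.93 in replicate 3. IL6, a cytokine (-3.57 ± 0.37), and the inhibitors TNFAIP3 (-2.86 ± 0.39) and NFKBIA (-2.39 ± 0.22) were also higher in DU145-DR. IL13RA2, a decoy cytokine receptor, was the 1 higher in 22Rv1-DR (10.29, 10.21 and 8.59 against 5.79, 4.63 and 7.30; 5.04 ± 0.35).

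Promoters of 4 of these chemokines are printed because they share 1 sequence. Each is the 250 bases before the annotated start, 5′ to 3′ on the gene's strand, from RefSeq on GRCh38.p14. CXCL8 (chr4:73740319-73740568) and CXCL1 (chr4:73869143-73869392) are on the plus strand, CXCL3 (chr4:74038690-74038939) and CXCL2 (chr4:74099196-74099445) on the minus strand. Capitals mark GGAATTTCC, a form of the NF-kappaB site, searched with its reverse complement GGAAATTCC.
CXCL8: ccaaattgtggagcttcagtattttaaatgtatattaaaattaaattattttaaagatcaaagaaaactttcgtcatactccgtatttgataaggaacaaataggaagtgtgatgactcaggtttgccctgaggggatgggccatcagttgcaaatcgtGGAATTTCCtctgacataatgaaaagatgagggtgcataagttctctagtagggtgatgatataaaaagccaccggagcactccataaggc
CXCL1: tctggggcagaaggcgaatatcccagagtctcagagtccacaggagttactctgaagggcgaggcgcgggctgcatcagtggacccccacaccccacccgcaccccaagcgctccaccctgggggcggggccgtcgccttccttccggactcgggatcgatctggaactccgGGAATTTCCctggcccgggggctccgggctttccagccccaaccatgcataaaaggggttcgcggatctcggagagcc
CXCL2: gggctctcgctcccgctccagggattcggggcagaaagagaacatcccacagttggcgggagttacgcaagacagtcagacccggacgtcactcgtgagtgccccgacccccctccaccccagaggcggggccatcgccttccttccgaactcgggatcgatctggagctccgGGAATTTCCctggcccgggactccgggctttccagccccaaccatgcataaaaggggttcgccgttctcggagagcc
CXCL3: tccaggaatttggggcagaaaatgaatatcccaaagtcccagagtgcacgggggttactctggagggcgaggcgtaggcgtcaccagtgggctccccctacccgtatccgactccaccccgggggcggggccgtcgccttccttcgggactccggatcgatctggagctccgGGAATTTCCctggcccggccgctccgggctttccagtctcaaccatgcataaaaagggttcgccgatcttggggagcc
The match begins at -91 in CXCL8, -78 in CXCL1 and CXCL3 and -77 in CXCL2. CXCL1 differed by -3.56 ± 0.35 and CXCL3 by -4.08 ± 0.35. Counts were again taken over windows that also run a short way past the annotated start. Of the 31 tested members, 25 had such a window and 9 (36%) held the letters. They were held by 129 of all 27305 promoters (0.472%) and 36 of 7294 promoters of tested genes (0.494%). CXCL1, CXCL2 and CXCL3 are near-identical copies, so their matches are not independent. The list was chosen as NF-kappaB genes, and a match is a description of the letters.

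Growth factor receptors split between the lines. Of 7 EGF family genes, 3 were higher in each line (median 0.43; -1.20 as deposited and -0.17 in replicate 3). ERBB3 (3.29 ± 0.25; 1 of 2 probe sets had the opposite sign) and ERBB4 (3.49 ± 0.14), receptors for neuregulins, were higher in 22Rv1-DR, and the ligand TGFA (-4.30 ± 0.26) was higher in DU145-DR. EGFR read 7.48, 7.88 and 6.78 in 22Rv1-DR and 8.21, 7.63 and 8.62 in DU145-DR, and its difference of -0.24 ± 0.23 (adjusted p = 0.421) had a 95% interval of -0.80 to 0.31. The mean of its probe sets differed by -0.45 (adjusted p = 0.0467). Of 31 other receptor kinase genes and ligands, 11 were higher in 22Rv1-DR and 12 in DU145-DR. MET, the receptor of hepatocyte growth factor, read 11.18, 12.05 and 11.57 in DU145-DR and 6.79, 7.16 and 7.25 in 22Rv1-DR (-4.64 ± 0.33), while its ligand HGF was higher in 22Rv1-DR (3.10 ± 0.20). FGF2, a fibroblast growth factor, was higher in DU145-DR (-4.15 ± 0.46). IGFBP2, a carrier of insulin-like growth factors, read 10.11, 10.10 and 9.54 in 22Rv1-DR and 4.97, 4.67 and 4.52 in DU145-DR (5.29 ± 0.18), and IGFBP6 went the other way (-2.99 ± 0.24).

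Notch and immediate early genes went both ways too. For Notch the shares were 11.8% higher in 22Rv1-DR and 17.6% in DU145-DR, against 25.9% and 23.8% of all genes tested. Of 17 Notch genes, 2 were higher in 22Rv1-DR and 3 in DU145-DR, 4 and 7 without DU145-DR replicate 1, and 1 in 22Rv1-DR without 22Rv1-DR replicate 2. The receptor NOTCH2 read 10.74, 10.66 and 10.99 in DU145-DR and 8.57, 8.87 and 7.98 in 22Rv1-DR (-1.98 ± 0.19), and its target HES1 was higher in 22Rv1-DR (1.28 ± 0.16; -0.04, adjusted p = 0.883, as deposited). The ligand JAG1 differed by -3.09 ± 0.40, and 2 of its 4 probe sets had the opposite sign. Of 32 immediate early and MAP kinase feedback genes, 15 were higher in DU145-DR and 8 in 22Rv1-DR, the latter 5 without 22Rv1-DR replicate 1. The phosphatases of MAP kinases differed in direction, DUSP5 higher in DU145-DR (-4.37 ± 0.39) and DUSP2 in 22Rv1-DR (4.33 ± 0.50). ETV1, a factor of the ETS family, read 10.80, 10.63 and 10.25 in 22Rv1-DR and 5.20, 5.70 and 4.85 in DU145-DR (5.27 ± 0.24).

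Antioxidant genes under the factor NRF2 were higher in DU145-DR, 17 of 29, with 4 higher in 22Rv1-DR (median -1.09). With arrays shifted to 1 median, 12 were higher in DU145-DR and the median was -0.37. NQO1, a quinone reductase, read 12.63, 13.31 and 13.05 in DU145-DR and 7.93, 7.86 and 8.15 in 22Rv1-DR, a difference of -5.07 ± 0.23 (adjusted p = 1.1e-05). HMOX1, heme oxygenase, differed by -3.55 ± 0.26. KEAP1, which marks NRF2 for destruction, read 9.20, 9.55 and 9.50 in 22Rv1-DR and 5.10, 5.68 and 4.69 in DU145-DR (3.99 ± 0.26). The arrays of the lines did not overlap for these genes. Glutathione and xenobiotic enzymes were mixed, 10 of 25 higher in 22Rv1-DR and 7 in DU145-DR (median -0.13; -1.73 as deposited and 0.22 in replicate 3), the latter 3 without 22Rv1-DR replicate 1. GSTA1, a glutathione transferase of liver, was the leading one in 22Rv1-DR (11.71, 11.59 and 11.24 against 4.66, 4.79 and 3.88; 6.92 ± 0.15). GSTP1, the transferase commonly silenced in prostate cancer, read 10.42, 10.48 and 9.26 in DU145-DR and 5.12, 6.81 and 5.64 in 22Rv1-DR (-4.49 ± 0.61), and NNMT, nicotinamide methyltransferase, differed by -4.06 ± 0.15.

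Hypoxia and glycolysis genes were higher in DU145-DR in 23 of 39 cases and in 22Rv1-DR in 10 (median -0.79), the latter 6 without 22Rv1-DR replicate 1. With arrays shifted to 1 median, 16 were higher in DU145-DR and the median was -0.32. BHLHE40, a repressor raised by low oxygen, differed by -6.09 ± 0.35, PFKP, a phosphofructokinase, by -3.77 ± 0.21, and STC2, a secreted stanniocalcin, by -3.66 ± 0.19. Its relative STC1 was the leading exception (5.39 ± 0.23). Of 27 sterol and fatty acid genes, 10 (37%) were higher in 22Rv1-DR and 5 (18.5%) in DU145-DR. The shares of all genes tested were 25.9% and 23.8%. Their median was 0.44 (-0.94 as deposited). The 5 became 3 without 22Rv1-DR replicate 1, with arrays shifted to 1 median or with only the 4 resistant arrays fitted. The fatty acid elongase ELOVL2 was higher in 22Rv1-DR (2.80 ± 0.16), and SQLE, squalene epoxidase (-2.45 ± 0.23), and SCD, stearoyl-CoA desaturase (-1.58 ± 0.15), were higher in DU145-DR.

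Counts of proliferation genes moved with the arrays fitted. Leaving out a resistant array leaves 1 array in its group. Leaving out a parental array changes only the spread of the fit and not the difference between the resistant lines. Of 41 S phase genes, 11 (26.8%) were higher in DU145-DR and 5 (12.2%) in 22Rv1-DR (median -0.10). The shares of all genes tested were 23.8% and 25.9%. Shifting arrays to 1 median left 2 higher in DU145-DR and 4 in 22Rv1-DR (median 0.14). Without 22Rv1-DR replicate 1 the 11 became 5 and the 5 became 2, without 22Rv1-DR replicate 2 they became 6 and 2, without DU145-DR replicate 1 the 5 became 2, without either parental 22Rv1 array it became 3, and without DU145-DR replicate 2 it became 10. Averaging the probe sets of each gene, 10 were higher in each line. MCM6, part of the replicative helicase, read 12.11, 12.30 and 12.46 in DU145-DR and 10.55, 10.61 and 10.93 in 22Rv1-DR (-1.62 ± 0.15, adjusted p = 0.000189). Of 48 mitosis genes, 9 (18.8%) were higher in 22Rv1-DR and 5 (10.4%) in DU145-DR (median 0.26; -0.98 as deposited). Both shares were below those of all genes tested, 25.9% and 23.8%. The 9 became 22 without DU145-DR replicate 2, 3 without 22Rv1-DR replicate 1 4 without 22Rv1-DR replicate 2 and 5 with only the 4 resistant arrays fitted. The 5 became 14 without DU145-DR replicate 1 and 3 with arrays shifted to 1 median. AURKB, the kinase of the chromosomal passenger complex, read 11.23, 11.17 and 10.24 in 22Rv1-DR and 8.39, 8.99 and 9.05 in DU145-DR (2.50 ± 0.21). MKI67, the proliferation marker Ki-67, was higher in DU145-DR (-1.96 ± 0.26), but 2 of its 4 probe sets had the opposite sign and their mean differed by -0.50 (adjusted p = 0.193).

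Control genes of G1 and of cell death differed by member. CCND1, cyclin D1, read 13.20, 13.43 and 12.96 in 22Rv1-DR and 11.37, 10.66 and 11.44 in DU145-DR (2.30 ± 0.24), and CDKN1B, the inhibitor p27, was higher in 22Rv1-DR as well (2.49 ± 0.21). CDKN1A, the inhibitor p21, differed by 0.44 ± 0.31 (adjusted p = 0.284; 95% interval -0.31 to 1.18; 0.91, adjusted p = 0.0202, without DU145-DR replicate 1), and RB1 by -0.05 ± 0.25 (adjusted p = 0.883). Over the list of 28, 6 (21.4%) were higher in 22Rv1-DR and 7 (25%) in DU145-DR, against 25.9% and 23.8% of all genes tested. With arrays shifted to 1 median the counts were 7 and 5. Of 26 apoptosis genes, 8 were higher in 22Rv1-DR (4 without 22Rv1-DR replicate 2) and 10 in DU145-DR. CASP8, the initiator caspase of death receptors, read 9.24, 9.69 and 9.15 in DU145-DR and 6.10, 5.45 and 4.49 in 22Rv1-DR (-3.69 ± 0.32), and its substrate BID was also higher in DU145-DR (-4.10 ± 0.23). CLU, the chaperone clusterin, was higher in 22Rv1-DR (13.47, 13.06 and 12.86 against 9.96, 8.30 and 10.05; 4.13 ± 0.51), as was APAF1, the scaffold of the apoptosome (2.96 ± 0.36; 1 of 3 probe sets had the opposite sign). BCL2 differed by -0.29 ± 0.24 (adjusted p = 0.352).

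The gap between the lines was not the same for the resistant and the parental cells. The resistant cells were grown under docetaxel and the parental cells without it, so selection and the presence of the drug cannot be told apart. The difference between the resistant lines minus that between the parental lines passed limma's test for 1126 of 8910 genes (12.6%), 602 above 0 (6.76%) and 524 below 0 (5.88%). Of the 1126, 1057 (93.9%) had the same sign in replicate 3. A fit that blocked on replicate inside each line, added after seeing the data, passed 2847 genes, the 1126 among them. The gap was wider between the resistant lines for 586 genes and narrower for 540. The term rests on all 4 groups, and it also passes where only a single line differed between its parental and resistant cells. The count moved widely when any 1 array was left out, which leaves 1 array in its group and fewer residual degrees of freedom. It fell without any array of DU145, 22Rv1 or 22Rv1-DR and rose without either DU145-DR array. With arrays shifted to 1 median it was 606.

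STC1, a secreted glycoprotein hormone, had the largest such change. It read 9.56, 9.19 and 8.12 in DU145, 5.01, 5.43 and 4.09 in DU145-DR, 5.92, 5.50 and 4.33 in 22Rv1, and 10.61, 10.62 and 7.58 in 22Rv1-DR. It was higher in DU145 between the parental lines (-3.67 ± 0.23) and higher in 22Rv1-DR between the resistant lines. The difference of the differences was 9.06 ± 0.33 (adjusted p = 6.8e-05; 7.29 in replicate 3). DAPK1, a death-associated kinase, turned the same way, at 7.73 to 9.82 in DU145, 5.04, 4.83 and 4.03 in DU145-DR, 5.42, 5.07 and 5.93 in 22Rv1, and 8.94, 8.87 and 7.86 in 22Rv1-DR (6.59 ± 0.27). Both genes changed sides in all 3 replicates. The rule that chose the 8 largest such terms each way required the same sign of the term in replicate 3. That sign is therefore no separate support.

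The opposite turn, from higher in 22Rv1 to higher in DU145-DR, was seen in SPOCK1, a matrix proteoglycan. It read 5.29, 4.96 and 3.71 in DU145, 10.77, 8.39 and 9.10 in DU145-DR, 8.99, 9.16 and 9.02 in 22Rv1, and 5.51, 5.53 and 5.59 in 22Rv1-DR (-8.01 ± 0.94, adjusted p = 0.0038). PMEPA1 read 10.57, 9.43 and 11.20 in 22Rv1 and 5.11, 5.16 and 4.83 in 22Rv1-DR, against 7.60, 6.80 and 8.30 in DU145 and 9.33, 7.56 and 9.55 in DU145-DR (-6.11 ± 0.88). RFTN1, a lipid raft protein (-5.74 ± 0.45), and TMEM45A, a membrane protein (-5.49 ± 0.67), turned in the same direction. These 4 genes had opposite signs in the 2 comparisons in replicate 3 too. For SPOCK1, PMEPA1 and RFTN1 the rule that chose them had required the sign of the difference of the differences there.

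Other gaps opened or widened. GSTA1 was near the floor in DU145 (4.63, 4.73 and 4.38), DU145-DR and 22Rv1 (4.82, 4.59 and 4.34) and was high in 22Rv1-DR alone, so the parental difference was 0.02 and the difference of the differences 6.90 ± 0.22. MAGEC2 did likewise (5.55 ± 0.36). LUM already differed between the parental lines, by 2.02 ± 0.24 (adjusted p = 0.000709) and by 6.22 in replicate 3. It was at 5.72, 6.31 and 9.51 in 22Rv1, so the difference of the differences was 6.15 ± 0.34 in the fit and 1.53 in replicate 3. In DU145-DR, SNAI2 (-5.87 ± 0.49; -2.79 in replicate 3) and TKTL1 (-5.89 ± 0.55) were high where DU145 replicates 1 and 2 were low. CD44 moved on both sides: it read 9.89, 9.83 and 9.29 in 22Rv1 and 10.95, 10.93 and 11.38 in DU145, a parental difference of -1.08 against -8.07 in the resistant lines (-6.99 ± 0.30).

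Gaps also closed, some of them past 0. EREG, the EGF receptor ligand epiregulin, read 10.56, 10.83 and 9.40 in DU145 and 3.97, 4.20 and 3.45 in DU145-DR, and was near the floor in both 22Rv1 lines (6.47 ± 0.24). The resistant lines differed in it by 0.43 ± 0.17 (adjusted p = 0.0798). BCHE, butyrylcholinesterase, read 11.84, 12.05 and 12.26 in DU145 and 4.62, 4.19 and 3.55 in DU145-DR (7.38 ± 0.31), and LMO3, a LIM protein, went from 10.93, 11.12 and 12.10 to 6.10, 5.85 and 7.18 (7.01 ± 0.27). In these 3 genes every DU145-DR array was below the DU145 array of its replicate number. The rule that chose them required the same sign of the difference of the differences in replicate 3. COL4A5, another chain of basement membrane collagen, was at 9.45 to 10.23 in both 22Rv1 lines, 4.24, 4.41 and 4.15 in DU145, and 10.80, 11.32 and 11.61 in DU145-DR (-6.17 ± 0.31). SDC2, a syndecan, had the same pattern (-6.03 ± 0.41).

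Among epithelial genes, SPINT2 was high in 3 of the groups and low in DU145-DR, at 12.49, 12.69 and 12.19 in DU145 and 7.11, 7.21 and 4.66 in DU145-DR (5.23 ± 0.21). CDH1 read higher in the parental lines, 12.03, 12.11 and 11.90 in 22Rv1 and 10.80, 11.07 and 11.71 in DU145, and its parental difference was 1.14 against 4.26 in the resistant lines (3.12 ± 0.24). IFITM3 was at 11.46, 11.27 and 13.06 in DU145, so its parental difference was -1.14 and the difference of the differences 4.99 ± 0.38. In the interferon list, 16 of 32 members passed the test of the difference of the differences above 0 and 1 below. Of all genes tested, 6.76% passed above 0 and 5.88% below. The list's median was 1.37 against -0.02 over all genes, and 1.18 to 1.52 when any 1 array was left out. Fewer members passed above 0 without any 1 of the arrays of DU145, 22Rv1 or 22Rv1-DR. In the S phase list, 12 of 41 passed that test below 0 and 0 above (median -0.57; -0.75 to -0.52 when any 1 array was left out). Fewer passed below 0 without any 1 of the arrays of DU145, 22Rv1 or 22Rv1-DR, and 4 did with arrays shifted to 1 median.

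**Figure D4:**
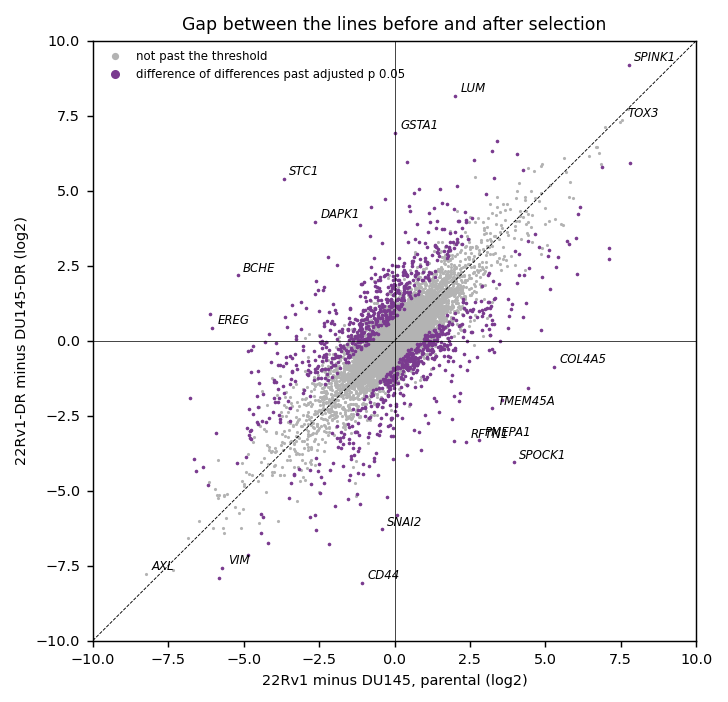
Difference between the resistant lines (vertical axis, log2) against the difference between the parental lines (horizontal axis, log2) for the 8910 tested genes; purple points passed the test of the difference of the differences and the dashed line marks equal gaps. STC1 and DAPK1 lie in the upper left quadrant and SPOCK1, PMEPA1, RFTN1 and TMEM45A in the lower right, where the direction turned.

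**Figure D5:**
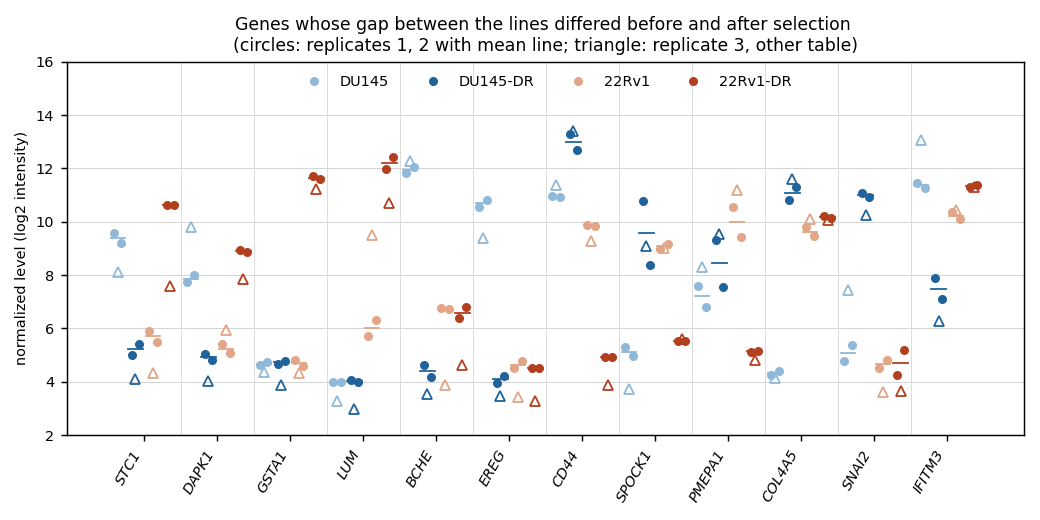
Normalized log2 intensity (vertical axis) of 12 genes in the 4 groups, parental pale and resistant dark; circles are replicates 1 and 2 with their mean as a line, and triangles are replicate 3. GSTA1 is high in 22Rv1-DR alone, EREG is high in DU145 alone, and STC1 is high in DU145 and 22Rv1-DR.

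The larger array type adds genes that are not on the smaller one, with 1 array per group and so no test. Of 7781 such genes, 4768 were above the filter on dim genes, and 720 (15.1%) were 1 or more higher in 22Rv1-DR and 600 (12.6%) in DU145-DR. MAL2, a protein of polarized membrane traffic, read 12.26 in 22Rv1-DR and 3.68 in DU145-DR (8.58), against 11.66 in 22Rv1 and 10.45 in DU145. SYT4, a synaptotagmin of secretory vesicles, differed by 7.03 and WDR72 by 7.75. In DU145-DR, FRMD6, a membrane-associated FERM protein, was higher (-7.90), as was FMNL2, an actin-assembling formin (-6.42). MIR100HG, the host transcript of a microRNA cluster, read 10.01 in DU145-DR and 3.25 in 22Rv1-DR, and 5.92 in DU145. DMTF1-AS1, a noncoding transcript on chromosome 7, read 13.87 in DU145-DR and 6.23 in 22Rv1-DR, against 7.53 in DU145 and 6.45 in 22Rv1. No replicate bears on these values.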

How the data were processed

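Messenger RNA of 4 groups, 22Rv1-DR, DU145-DR and the parental 22Rv1 and DU145, was measured on 12 one-colour Affymetrix arrays, 3 per group. The authors deposited probe set intensities on a linear scale, in a table of 8 arrays with 22215 probe sets (replicates 1 and 2; 7.52 to 31216) and a table of 4 arrays with 54613 (replicate 3; 6.73 to 30786). MAS5 and RMA are named per the submitters' processing notes, without roles or versions. The log2 of every deposited intensity has 2 decimals, and the 5th percentile of the 8 deposited arrays was 35.8 to 38.6 in the DU145 lines and 11.5 to 12.3 in the 22Rv1 lines, against 10.9 to 11.0 in the other 4.

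Each table was quantile-normalized on log2 values with no pseudocount, apart from the other. Probe sets with 1 gene symbol in GEO's platform annotation were kept (19064 of 22215; 1043 had several and 2108 none), Y-linked and X-inactivation probe sets were left out (31), and the probe set with the highest mean stood for its gene. Of 11936 genes, 8910 whose highest group mean exceeded the 40th percentile (log2 5.99) were tested, and 3026 were left out as dim. limma 3.58.1 in R 4.3.3 fitted 8 arrays in 4 groups without a block, with residual df 4 and prior df 2.85, and Benjamini-Hochberg adjustment over all genes tested at 0.05. The same fit gave the parental difference and the difference of the differences. Replicate 3 entered no test. The number of arrays limits the precision. Fits were tested on simulated data.

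Replicate numbers are shared across the groups. Deviations of replicate 1 correlated at 0.0601 between DU145-DR and 22Rv1-DR, 0.594 within the DU145 lines and 0.784 within the 22Rv1 lines, so the numbers were not taken to pair the 2 lines. Within a line, 2 pairs are too few to take them as pairs, and a block within each line was tried for the difference of the differences, chosen after seeing the data.

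The members and the gene lists were chosen with earlier results of these data known. Genes were named by rule. The rules took the 12 largest differences each way with no overlap and the same sign in replicate 3. They took up to 4 members of each list with the largest called differences. Of the called differences of differences, they took the 8 largest each way with the same sign in replicate 3. Added to these were the 6 clearest turns of direction and a set of genes named whatever their result. The 5 largest differences each way on the larger array type came last. Chosen after their values were seen were DSC2, TWIST1, CALD1, ACTA2, FN1, ISG15, IFI16, PSME1, IL6, TNFAIP3, NFKBIA, HGF, CXCL1, CXCL3, S100P and SPINT1, and in the closing section HPRT1, LINC00342, DNAJB9 and SIMC1P1. Alternatives changed the normalization, pseudocount (16 or 64), filter, probe set rule, samples fitted, block and arrays left out.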

Additional observations from a re-analysis of the deposited data

Results flagged for a closer look

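For 20 genes the gap between 22Rv1-DR and DU145-DR differed from the gap between the parental lines by limma's test of the difference of the differences, which is what drew attention to them. Most were chosen as the largest values of that same test among genes with the same sign in replicate 3. Passing it again on the same arrays therefore gives no separate support. All 20 passed that test under each alternative run, and the values below are log2. The size moved by over 1.5 times when probe sets of a gene were averaged for STC1 (5.95), GSTA1 (3.65), DAPK1 (3.38), MAGEC2 (2.81), CDH1 (1.46), CD44 (-4.20) and SDC2 (-3.98), and with a pseudocount of 64 for CDH1 (1.40), DAPK1 (4.07) and SDC2 (-3.93).

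Above 0 were STC1 (9.06), BCHE (7.38), LMO3 (7.01), GSTA1 (6.90), DAPK1 (6.59), EREG (6.47), LUM (6.15), MAGEC2 (5.55), SPINT2 (5.23), IFITM3 (4.99) and CDH1 (3.12). The secreted proteins STC1 and LUM and the germ cell antigen MAGEC2 were high in 22Rv1-DR, while BCHE, LMO3 and EREG were high in parental DU145. SPINT2, IFITM3 and CDH1 were lowest in DU145-DR.

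Below 0 were SPOCK1 (-8.01), CD44 (-6.99), COL4A5 (-6.17), PMEPA1 (-6.11), SDC2 (-6.03), TKTL1 (-5.89), SNAI2 (-5.87), RFTN1 (-5.74) and TMEM45A (-5.49).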

How the results depend on the processing

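The 4435 genes that differed between the resistant lines ranged from 3004 to 4574 when 1 array was left out, the 4357 of the parental lines from 2858 to 4954, and the 1126 of the difference of the differences from 368 to 1693. With values as deposited the first 2 counts were 7139 and 7165, and 3039 of the 4435 calls were shared, 478 of them with the other sign. The deposited arrays of replicates 1 and 2 differ in their floor by line, as the 5th percentiles given with the processing show. Those of replicate 3 do not. In the tested differences between lines, line and array processing therefore cannot be told apart. With arrays shifted to 1 median, 606 genes passed the difference of the differences, 571 of them among the 1126. With the replicate block the counts were 4974, 4904 and 1481, and with 12 arrays and the replicate block 4318, 4233 and 1189. A replicate block within each line, added after seeing the data and with 2 residual df, gave 2847 for the difference of the differences, the 1126 among them. The block shared across lines brought EREG past the threshold between the resistant lines and changed no other named gene's call. Fitting only the 4 resistant arrays gave 3554. For the difference of the differences that setting was not run, since it needs all 8 arrays.

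Of 153 named genes that passed between the resistant lines, 146 passed without each array in turn and 139 under every alternative other than the values as deposited. As deposited, the sign turned for KRT18 (-0.24), HES1 (-0.04), LMO3 (-0.73), LINC00342 (-0.23) and SIMC1P1 (-0.30), and for genes that had not passed, EREG (-1.20), KRT19 (-1.52), TUBB3 (-0.92), CHGA (-1.57) and CDKN1A (-0.87). With arrays shifted to 1 median it turned for KRT8 (0.36), RB1 (0.21) and CHGA (0.00). It turned for CDH2 with the mean of its probe sets (0.58), for KRT19 with a pseudocount of 64 (-0.00), and with 12 arrays for KRT19 (-0.19) and SPINT1 (0.30). When 1 array was left out, genes on both sides of 0 were ABCB1 (-0.00 to 2.49), ABCB4 (-2.33 to 1.04), CDH2 (-0.25 to 0.13), CDKN1A (-0.04 to 0.91), CHGA (-0.13 to 0.47), EGFR (-0.53 to 0.05), KRT19 (-0.54 to 0.59), KRT8 (-0.37 to 0.37) and RB1 (-0.30 to 0.20), none of which had passed. The cause was not tested. Signal near the floor limits 453 of the larger differences, and 2 arrays per group limit all of them.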

Other observations

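Developmental signalling genes went both ways between the resistant lines. Of 30 Wnt genes tested, 6 (20%) were higher in 22Rv1-DR and 10 (33.3%) in DU145-DR, against 25.9% and 23.8% of all genes tested. Their median was -0.07 against 0.03 over all genes tested. WNT5A, a ligand of the branch that does not use beta-catenin, read 8.04, 8.84 and 7.63 in DU145-DR and 4.29, 4.35 and 4.32 in 22Rv1-DR (-4.12 ± 0.41, adjusted p = 0.000288 by limma). The receptor FZD7 differed by -3.04 ± 0.51, and its relative FZD3 was higher in 22Rv1-DR (2.67 ± 0.33). Of 34 TGF-beta and BMP genes, 5 were higher in 22Rv1-DR and 13 in DU145-DR (median -0.52), and with a filter at the 60th percentile 3 and 10 of 22. The ligand BMP2 read 8.80, 9.09 and 8.64 in 22Rv1-DR and 5.72, 4.56 and 4.54 in DU145-DR (3.80 ± 0.36), and the receptor TGFBR2 was higher in DU145-DR (-2.71 ± 0.18). The lines did not overlap for WNT5A or BMP2. Of 5 Hedgehog genes, 1 was higher in 22Rv1-DR and 2 in DU145-DR, among them the factor GLI3 (-1.81 ± 0.16). The 1 became 0 without DU145-DR replicate 1 or 22Rv1-DR replicate 1 or 2, and with arrays shifted to 1 median the 2 became 4.

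Of 21 HOX and lineage factors, 8 were higher in 22Rv1-DR and 5 in DU145-DR (median 0.41; -1.17 as deposited). The nuclear receptor NR5A2 read 10.09, 10.49 and 9.60 in 22Rv1-DR and 5.81, 5.32 and 5.34 in DU145-DR (4.73 ± 0.22). HOXC6, a homeobox factor, differed by 2.85 ± 0.22. SOX9, a factor of progenitor cells (-3.35 ± 0.30), and MEIS2, a partner of HOX proteins (-3.14 ± 0.15), were higher in DU145-DR. Of 7 IGF-binding protein genes, 2 were higher in 22Rv1-DR and 3 in DU145-DR (median -0.76, but 0.58 in replicate 3). Among markers of other cells on the array, 5 of 19 endothelial and fibroblast genes, 3 of 19 leukocyte genes and 6 of 17 hepatocyte and blood genes passed the filter. The filter takes the highest group mean, so a gene can pass through 1 group. Of those that passed it, 2, 0 and 3 were higher in 22Rv1-DR by limma's test, and 0 of each in DU145-DR. As deposited, the median of the endothelial and fibroblast genes went from 0.22 to -1.46 and that of the hepatocyte and blood genes from 0.98 to -0.59. Without DU145-DR replicate 2, 1 endothelial or fibroblast gene, 2 leukocyte genes and 1 hepatocyte or blood gene were higher in DU145-DR.

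For 5 genes that passed the test, replicate 3 differed by 1 or more the other way. SPINT1, a protease inhibitor, was -1.68 in the fit and 4.26 in replicate 3. HPRT1, a purine salvage enzyme often used as a reference gene, was -1.53 and 1.02. LINC00342 was 1.24 and -1.24, DNAJB9, a chaperone of the endoplasmic reticulum, -1.22 and 1.44, and SIMC1P1 1.13 and -1.66. U2AF1, a splicing factor, differed by -6.41 ± 0.49 on replicates 1 and 2 and by -0.42 in replicate 3. Which array type reads these genes correctly was not tested.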
